A study of Homo sapiens with 2 samples.

Results

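The polyamine genes described here are the 10 genes SAT1, ODC1, OAZ1, OAZ2, AZIN1, AMD1, SRM, SMS, SMOX and PAOX, taken by symbol from a table of 10987 genes, and all 10 were listed. SAT1 and SMS lie on chromosome X, SRM on chromosome 1, ODC1 on 2, AMD1 on 6, AZIN1 on 8, PAOX on 10, OAZ2 on 15, OAZ1 on 19 and SMOX on 20. RNA sequencing had been carried out on 2 libraries of the THP1 leukaemia cell line, 1 from cells given bortezomib (bort), an inhibitor of the proteasome, for 24 h and 1 from untreated cells. The labels give neither a dose nor a vehicle for the untreated cells. Each gene has 1 value per library in FPKM, fragments per kilobase of transcript scaled by the mapped fragments of its library, so no difference below could be set against a spread between replicates and none was tested. Every comparison is therefore between 2 libraries and not between conditions, and an effect of bort cannot be told apart from any other difference between these cultures. The list was drawn up with values of this contrast already known, and the levels and fold changes are given as a description.

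Polyamines are small positively charged molecules that bind nucleic acids and that dividing cells need in large amounts. Ornithine decarboxylase makes putrescine, and spermidine synthase and spermine synthase extend it with aminopropyl groups taken from decarboxylated S-adenosylmethionine. SAT1 acetylates the products for oxidation or export, and antizymes shut the pathway down by carrying ornithine decarboxylase to the proteasome, which degrades it without ubiquitin. The proteins and the polyamines themselves were not measured, and the values below are mRNA levels.

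THP1 is described as monocytic, but the libraries carried an erythroid set of transcripts. Of 20 erythroid markers 18 were listed, with a summed level of 5128 FPKM in the untreated and 4462 FPKM in the bort library. Only 8 of 20 markers of monocytes and myeloid cells were present, summing to 26.2 and 65.4 FPKM, and CD14, CSF1R, MPO, HOXA9 and MEIS1 were not listed. The samples are therefore called here by their treatment labels only. The haemoglobin gene HBG1 alone made up 1487 and 1536 FPKM of the erythroid sum. However, 13 of the 18 erythroid markers were lower with bort, beside 49.7% of all genes. The median log2 fold change of the 18 was -0.86. Lower by 2-fold or more were 5 of the 18, beside 10.2% of all genes. Among those 5 were the erythroid transcription factors KLF1 at -3.01 and GATA1 at -1.71. Of the 8 listed markers of monocytes and myeloid cells, 6 were higher and 2 lower with bort, with a median of 0.69. Over all 10987 genes, 5526 were higher. ITGAM, S100A9, AZU1 and CTSG, which are among the 8, lay below 1 FPKM in both libraries. LYZ at 1.79 and CD68 at 1.61 were higher by 2-fold or more, beside 8.08% of all genes. The part of these marker levels in the values of the polyamine genes was not tested. In such bulk RNA a smaller number of cells of a type and less RNA per cell cannot be told apart.

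In the bort library, the mRNA of the acetylating enzyme SAT1 was far higher than in the untreated library, and the mRNAs of 2 of the 4 enzymes of polyamine synthesis, SRM and ODC1, were lower by more than 2-fold. The other synthesis enzymes, AMD1 and SMS, had log2 fold changes of -0.49 and -0.40, and 49.7% of all genes lay below 0. On the log2(FPKM + 1) scale, which understates differences of genes with low FPKM, 1 of the 10 genes (SAT1) was higher by 2-fold or more and 2 (SRM and ODC1) were lower by 2-fold or more. Over all 10987 genes 8.08% were higher and 10.2% were lower by that measure. The other 7 polyamine genes lay within 2-fold, and AZIN1, with a log2 fold change of 0.91, came closest to the threshold without reaching it. The median log2 fold change of the 10 genes was -0.33 and their mean 0.078, of opposite sign, against a median of 0.0049 and a mean of -0.019 over all genes. At 1.5-fold 3 of the 10 were higher and 3 lower, beside 20.8% and 21.6% of all genes, and at 4-fold only SAT1 was past the threshold, beside 0.837% higher and 1.23% lower.

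**Figure D1:**
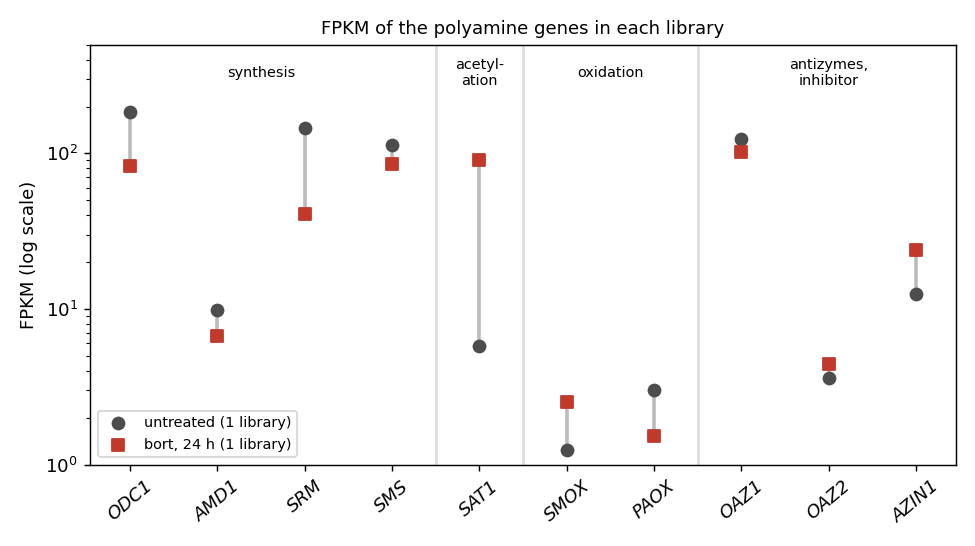
FPKM (log axis) of the 10 polyamine genes in the untreated library (circles) and the bort library (squares), grouped by role, with a grey line joining the 2 values of a gene and no error bars because each group is 1 library. SAT1 goes from 5.74 to 90.5 FPKM while ODC1, AMD1, SRM and SMS are all lower in the bort library.

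SAT1, the spermidine/spermine acetyltransferase and the step at which polyamines are marked for breakdown, measured 5.74 FPKM without and 90.5 FPKM with bort. The bort value was 15.8 times the untreated value, and the log2 fold change was 3.76. On the log2(FPKM + 1) scale SAT1, listed as ENSG00000130066.16_2, ranked 4 from the top of the 10987 genes. With the trend with GC content removed, as described below, SAT1 ranked 8 from the top of the 10907 matched genes. In the untreated library SAT1 stood in the middle of the table, above 49.5% of the listed genes, and in the bort library it stood above 97.3% of them. Its place among the 10 polyamine genes moved from 7 to 2. Among the 4576 genes that reached at least 10 FPKM in a library, those nearest to SAT1 in fold change over the 2 libraries were CXCL8 and AC120057.3 above it and PRDM9 and AHNAK below it. PRDM9 was closest, at 3.88 FPKM untreated and 65.0 FPKM with bort, a log2 fold change of 3.76. CXCL8, at 4.47 on this scale, was at 0.293 and 27.6 FPKM and AHNAK, at 3.67, was at 0.455 and 17.5 FPKM, both from far lower untreated levels than SAT1. As plain ratios of FPKM, PRDM9 at 16.7 and AHNAK at 38.4 were above SAT1 at 15.8. AC120057.3 was listed at 0 in the untreated library and at 21.9 FPKM in the bort library.

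ODC1, which encodes ornithine decarboxylase, the first enzyme of the pathway, was the most abundant polyamine mRNA in the untreated library at 185 FPKM and was at 82.9 FPKM in the bort library. The bort value was 2.24-fold lower, a log2 fold change of -1.15. Many genes differed by as much, and ODC1 ranked 811 from the bottom. Its nearest genes in fold change, ENGASE, ERCC2, ATAD3B and HIRIP3, all had a log2 fold change of -1.15 too, and their untreated levels of 11.3 to 40.6 FPKM were far below that of ODC1. With the trend with GC content removed, as described below, these 4 genes lay between -0.82 and -0.50 and ODC1 (ENSG00000115758.12_3) at -1.13.

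SRM, spermidine synthase, was the gene furthest below its untreated level among the 10. SRM is listed as ENSG00000116649.9_3. It measured 145 FPKM untreated and 40.8 FPKM with bort, 3.57-fold lower, with a log2 fold change of -1.81 and the rank 192 from the bottom of all genes. With the GC trend removed SRM, at -1.23, ranked 373 from the bottom of the matched genes and ODC1, at -1.13, ranked 463. SMS, spermine synthase, uses the same aminopropyl donor for the next step, and its mRNA went from 113 to 85.6 FPKM, which is -0.40 as log2 fold change. AMD1, which supplies that donor by decarboxylating S-adenosylmethionine, was much the scarcest synthesis mRNA, at 9.84 and 6.74 FPKM, a log2 fold change of -0.49. The summed FPKM of the 4 synthesis enzymes was 454 in the untreated and 216 in the bort library, 2.10-fold lower. Their median log2 fold change was -0.82.

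Ratios between genes inside a library do not depend on how the libraries were scaled. Their change between libraries can depend on the trend with GC content described below, which was not removed from them. The untreated library held 32.3 times as much ODC1 as SAT1 mRNA by FPKM, and in the bort library the ratio was 0.916, so the first enzyme of synthesis and the enzyme of acetylation stood at nearly the same level there. The ratio of SRM to SMS was 1.28 untreated and 0.476 with bort, which reversed the order of the synthases. ODC1 to AMD1, the decarboxylases that feed the aminopropyl steps, differed less, with ratios of 18.9 and 12.3. With the GC trend removed, the log2 fold changes of ODC1 and AMD1 were -1.13 and -1.02. Those of SRM and SMS were -1.23 and -0.37, nearer to each other than the -1.81 and -0.40 before removal.

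The sequences around the start sites of SAT1, SRM and ODC1 are shown because these are the 3 genes past 2-fold. For ODC1 only the downstream window is printed, which holds E-boxes, while its upstream window, described below, holds none. Each window holds 250 bases before and 50 bases after a RefSeq start site in GRCh38.p14, given 5′ to 3′ on the strand of the gene, and capitals mark the E-box CACGTG (the site of MYC and MAX family factors), the CCAAT box and the element TATAA on either strand.
SAT1, chrX:23782923-23783222, plus strand: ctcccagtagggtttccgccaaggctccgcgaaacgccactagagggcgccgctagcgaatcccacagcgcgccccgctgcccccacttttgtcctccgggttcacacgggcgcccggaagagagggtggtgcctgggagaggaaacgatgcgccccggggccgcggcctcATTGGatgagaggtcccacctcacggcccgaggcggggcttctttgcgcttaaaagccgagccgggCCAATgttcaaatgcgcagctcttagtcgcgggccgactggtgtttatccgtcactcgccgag
SRM, chr1:11059969-11060268, minus strand: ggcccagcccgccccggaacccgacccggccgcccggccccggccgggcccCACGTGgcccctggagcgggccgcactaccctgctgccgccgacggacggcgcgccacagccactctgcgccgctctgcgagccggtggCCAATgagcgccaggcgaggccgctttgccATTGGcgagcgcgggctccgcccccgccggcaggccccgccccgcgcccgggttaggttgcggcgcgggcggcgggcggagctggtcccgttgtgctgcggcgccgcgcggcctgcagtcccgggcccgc
ODC1, chr2:10447963-10448262, minus strand: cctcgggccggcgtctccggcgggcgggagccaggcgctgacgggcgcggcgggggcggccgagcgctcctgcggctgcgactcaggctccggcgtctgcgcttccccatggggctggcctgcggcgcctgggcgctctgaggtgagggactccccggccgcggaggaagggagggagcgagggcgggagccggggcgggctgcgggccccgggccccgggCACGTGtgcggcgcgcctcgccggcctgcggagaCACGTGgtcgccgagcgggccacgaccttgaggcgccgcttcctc

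The SRM window held 1 E-box at position -199, counted from the start site, and the ODC1 window held 2, at positions -29 and 6. RefSeq gave 10 windows for 7 of the polyamine genes, 3 of them for AMD1 and 2 for ODC1, and E-boxes occurred in those of ODC1 and SRM and in none of the others, 2 of the 10 windows. Of all 35116 promoter windows 7.26% held CACGTG. ODC1 has a further start site upstream, at chr2:10448278-10448577, whose window held no E-box but TATAA at position -32. TATAA was present in 4 of the 10 windows, those of AMD1 and OAZ1 included, and in 20.4% of all windows. The SAT1 window held a CCAAT box on each strand, at positions -79 and -13, as did the SRM window at -110 and -80. CCAAT was present in 5 of the 10 windows and in 34.6% of all windows. The GC box GGGCGG was present in 9 of the 10, that of SAT1 being the exception, and in 45.0% of all windows. Counted by gene, TATAA was in 3, CCAAT in 5 and GGGCGG in 6 of the 7. The AMD1 windows that start at 110874534 and 110874535 are almost the same sequence, yet they count as 2 of the 10. The 10 windows had 65.3% to 82.0% GC, against a median of 58.7% over all windows. The part of base composition in these counts was not tested. The core TGACNNNGC of the antioxidant response element occurred in the upstream ODC1 window, overlapping no other motif searched, and in 13.3% of all windows, and TGATGNAA, the core of C/EBP-ATF elements, in none of the windows of these genes and in 3.62% of all. These motifs were chosen with the values known, and a match is a match of letters only. Of the matches in these windows 1 pair overlapped, GC boxes of OAZ2.

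The mRNAs of the antizymes differed little between the libraries. OAZ1, the main antizyme, was at 124 FPKM untreated and 103 FPKM with bort, a log2 fold change of -0.26 that turned to 0.098 when the trend with GC content described below was removed. OAZ2, a related antizyme, was at 3.62 and 4.43 FPKM, a log2 fold change of 0.23. OAZ1 thus outnumbered OAZ2 by 34.2 times in the untreated and 23.2 times in the bort library. AZIN1, the antizyme inhibitor, resembles ornithine decarboxylase but has no activity, and it holds antizyme away from the enzyme. Its mRNA was at 12.4 and 24.1 FPKM, the bort value being 1.95 times the untreated one and the log2 fold change 0.91, which passed 2-fold at 1.02 and 1.01 under 2 other scalings. The ratio of ODC1 to AZIN1 mRNA was 15.0 untreated and 3.44 with bort, and that of OAZ1 to ODC1 was 0.667 and 1.24, so ODC1 went from above to below OAZ1 in level.

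Antizyme output is also set at translation, which these levels do not show. A ribosome meets a stop codon early in the antizyme mRNA and makes the full protein only after slipping by 1 base, which polyamines favour. The sites are shown as 30 bases of GENCODE 29 transcripts, with the codon before the slip in capitals. OAZ1-204 keeps the stop codon, also in capitals, while the annotation of OAZ1-211 and OAZ2-201 joins the frames by leaving 1 base out.
OAZ1-204: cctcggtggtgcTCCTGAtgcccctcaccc
OAZ1-211: cctcggtggtgcTCCgatgcccctcaccca
OAZ2-201: cctctgtggtgcTCCgatgcccctcaccca

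In OAZ1-211 the frame was open for 68 codons up to the slip and for 160 codons after it, and in OAZ2-201 for 32 and 157 codons. The windows of OAZ1-211 and OAZ2-201 had 29 of 30 bases in common, the exception being G5T, counted from 1 at the 5′ end of the OAZ1 window. FPKM counts fragments of the mRNA whether or not ribosomes slip, so the OAZ1 and OAZ2 values give the template only.

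The oxidases were the scarcest polyamine genes, and they differed in opposite directions. SMOX, which oxidises spermine directly and releases hydrogen peroxide, was at 1.24 FPKM untreated and 2.52 FPKM with bort. PAOX, the peroxisomal oxidase that acts on the acetylated polyamines made by SAT1, was at 2.99 and 1.51 FPKM. The log2 fold changes were 0.66 for SMOX and -0.67 for PAOX. At such levels the pseudocount matters, and without it the SMOX level with bort was 2.04 times the untreated level and that of PAOX 1.97-fold lower with bort. The order of the oxidases was thus PAOX above SMOX in the untreated and SMOX above PAOX in the bort library. With SAT1 at 90.5 FPKM and PAOX at 1.51 FPKM in the bort library, the enzymes of acetylation and of the following oxidation held places 2 and 10 among the 10 genes. The ratio of SMOX to SAT1 was 0.215 untreated and 0.0279 with bort.

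In the untreated library the levels ran, from the highest, ODC1, SRM, OAZ1, SMS, AZIN1, AMD1, SAT1, OAZ2, PAOX and SMOX, and in the bort library OAZ1, SAT1, SMS, ODC1, SRM, AZIN1, AMD1, OAZ2, SMOX and PAOX. With 1 library each, it cannot be said which neighbours in this order differ by more than their spread. In the bort library SAT1, SMS and ODC1 lay between 82.9 and 90.5 FPKM.

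Fold changes across the whole table went down as GC content went up. Across the 10907 genes matched to GENCODE 29 the Spearman correlation was -0.49, given as a description since genes are not independent replicates. The polyamine genes ranged from 38.2% GC for AMD1 to 63.9% for SRM. In the tenth of genes with the highest GC content, to which SRM and PAOX belong, the median log2 fold change was -0.64, and in the tenth with the lowest, to which AMD1 belongs, it was 0.58. With the trend removed, SAT1 was at 3.60 and ODC1 at -1.13, about as before. SRM was at -1.23 and PAOX at -0.12, both closer to 0, whereas AMD1 was at -1.02 and SMOX at 1.07, both just past 2-fold. AZIN1, in a group of low GC content, was at 0.61, SMS at -0.37 and OAZ2 at 0.43. On this scale 7.01% of all matched genes were past 2-fold upwards and 6.03% downwards, and the part of GC content in the values of the polyamine genes was not tested further.

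**Figure D2:**
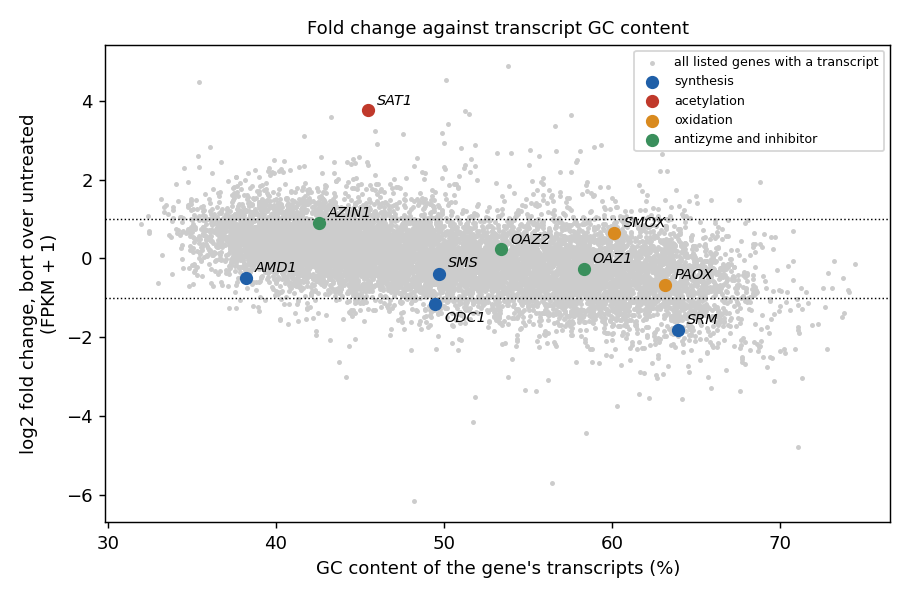
Log2 fold change (bort over untreated, FPKM + 1) against the GC content of a gene's transcripts in percent, for all genes with a transcript (grey) and the 10 polyamine genes (coloured by role), with dotted lines at 2-fold. SAT1 lies far above genes of similar GC content, AMD1 lies low among genes of low GC content, and SRM lies at 63.9% GC, where most genes are below 0.

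Genes around the pathway were taken from a list of 31 in 5 roles, of which 19 were listed. Of these 1 (ARG2) was higher and 1 (EIF5A) was lower by 2-fold or more, beside the 8.08% and 10.2% of all genes. Their median log2 fold change was -0.099 and their mean -0.064, and the median turned to 0.0030 and 0.00017 under 2 of the other scalings. ARG2, the mitochondrial arginase that makes ornithine, the substrate of ODC1, was at 7.04 FPKM untreated and 19.8 FPKM with bort, a log2 fold change of 1.37. ARG1 was not listed. ASL, which forms arginine, had the lowest value of the supply genes, with 15.9 FPKM untreated, 7.79 FPKM with bort and a log2 fold change of -0.94. The ASL value passed 2-fold under 2 of 8 other settings. SAT2, a relative of SAT1, was at 1.36 and 3.55 FPKM, with a log2 fold change of 0.95 that passed 2-fold under 6 of 8 other settings, and was the only listed gene of the 4 relatives of SAT1, the antizymes and AZIN1.

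Of the 6 listed genes that make S-adenosylmethionine or recover methionine from the methylthioadenosine left over by SRM and SMS, 5 had negative values, none of them past 2-fold, beside 49.7% of all genes with a negative value. MRI1, an isomerase of the salvage route, was the lowest of them, at 26.8 and 13.1 FPKM and a log2 fold change of -0.98. The MRI1 value passed 2-fold under 3 of 8 other settings, which ranged from -1.03 to -0.71. MAT2B, the regulatory subunit of the S-adenosylmethionine synthetase, was the only positive one, at 7.06 and 11.3 FPKM and 0.61. MTAP, which starts the salvage, was not listed. EIF5A, the translation factor that carries hypusine, a residue made from spermidine, was at 195 FPKM untreated and 91.6 FPKM with bort. Its log2 fold change was -1.08. EIF5A no longer reached 2-fold when scaled to the total without the 20 most abundant genes, at -0.97, or to the upper quartile, at -0.98. With the GC trend removed it was at -0.77. Its scarce relative EIF5A2 was at 1.28 and 3.12 FPKM, a log2 fold change of 0.85 that was 1.28 without a pseudocount and 0.25 with the GC trend removed. Of the transport genes, SLC3A2 had the highest value at 0.57, from 32.3 to 48.5 FPKM, and SLC18B1, a vesicular polyamine carrier, the lowest at -0.52, from 10.2 to 6.84 FPKM.

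**Figure D3:**
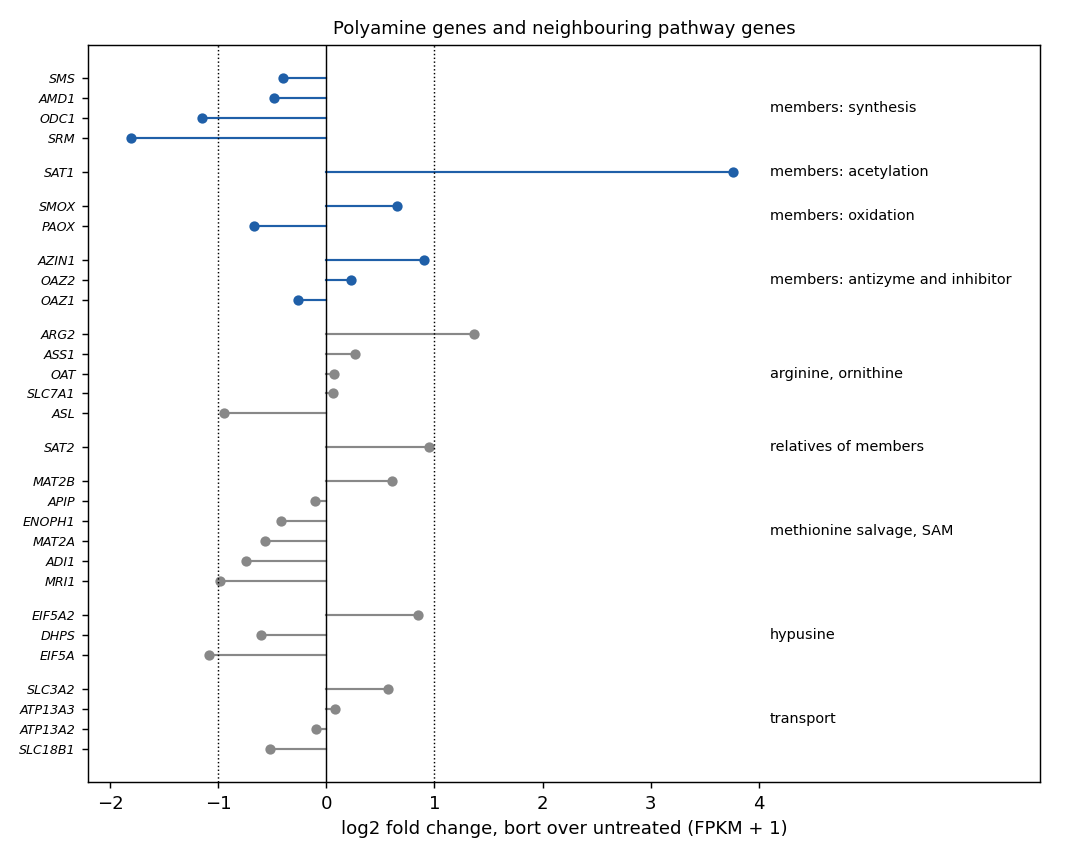
Log2 fold change (bort over untreated, FPKM + 1) of the 10 polyamine genes (blue) and the 19 listed genes around the pathway (grey), by role, with dotted lines at 2-fold. SAT1 at 3.76 and ARG2 at 1.37 lie beyond the upper line, and SRM, ODC1 and EIF5A beyond the lower one.

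Some of these values may hold fragments of other genes. In GENCODE 29, OAZ1 shares its strand and part of its position with 1 further protein-coding gene, as does PAOX, and AZIN1, OAZ1 and OAZ2 overlap genes on the opposite strand. AMD1, SRM, SMS, OAZ1 and ODC1 have named pseudogenes that can share reads with them. For SAT1 and SMOX neither an overlapping gene nor a pseudogene of their name was found. No gene in the table had less than 0.501 FPKM in its higher library, so a gene that is not listed may have been below that in both. All 10 polyamine genes reached 1 FPKM in both libraries, and the number of fragments behind their values is unknown.

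**Figure D4:**
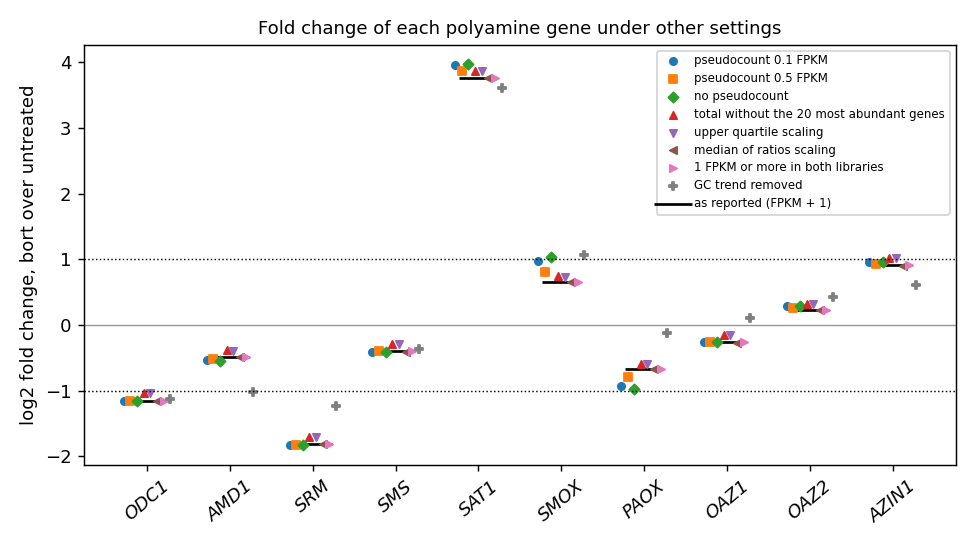
Log2 fold change (bort over untreated) of each polyamine gene as reported (black bars) and under 8 other settings of pseudocount, scaling, filter and GC content (coloured symbols), with dotted lines at 2-fold. SAT1, ODC1 and SRM stay past 2-fold under all 8, and OAZ1 crosses 0 when the GC trend is removed.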

How the data were processed

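The 2 libraries were mapped to bort and untreated by their treatment labels. Per the methods, trimmed reads were mapped with HISAT2 2.0.4 and abundances estimated with StringTie 1.2.3. The submitters' processing notes name GRCh37. The annotation is not given in the sources used here. The methods describe a stranded poly-A library from a KAPA kit, and the labels a TruSeq kit, so whether strand was used is uncertain. The authors deposited FPKM values per gene, with no counts. Depth is unknown, since 20 and 15 genes of 1 transcript lay below 0.2 FPKM in the bort and untreated libraries, not enough to find what 1 read is worth, and no interval is given. The 20 most abundant genes held 21.6% and 10.8% of the summed FPKM.

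Fold changes are differences of log2(FPKM + 1), called at 2-fold, with no test. Other settings were pseudocounts, scalings, fold thresholds, a filter at 1 FPKM and removal of the GC trend (lowess, span 0.3), which was tested on simulated data. GC content is that of GENCODE 29 transcripts matched by identifier. The genes and lists were chosen with earlier results of these data known. Named were the 10 polyamine genes, the genes around the pathway past 2-fold or with the highest or lowest value of their role, and the 2 genes above and below SAT1 and ODC1 in fold change at 10 FPKM or more. Motifs were chosen after the values were seen. Symbols of genes not listed were also looked up by identifier. Python 3.11.15, numpy 2.4.6, pandas 2.3.3, statsmodels 0.14.6 and matplotlib 3.10.9 were used.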

Additional observations from a re-analysis of the deposited data

How the results depend on the processing

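No paired analysis was possible because there is 1 library per group, which also left no library to leave out. Scaling to the total without the 20 most abundant genes or to the upper quartile shifted log2 fold changes by 0.11 before the pseudocount, and by less for genes with low FPKM. Over 8 other settings for each of the 10 polyamine genes, 79 of 80 values kept their direction and 75 their side of 2-fold. A change of pseudocount cannot alter a direction. The filter at 1 FPKM, which all 10 genes passed, repeats the values as reported. Only the scalings and the removal of the GC trend could turn a direction. OAZ1 turned to 0.098 with the GC trend removed. AZIN1 passed 2-fold at 1.02 under scaling to the total without the 20 most abundant genes and at 1.01 under upper quartile scaling. SMOX passed it at 1.03 with no pseudocount and at 1.07 after removal of the GC trend, which also put AMD1 at -1.02. The number of polyamine genes higher by 2-fold was therefore 2 under each of these 4 settings, against 1, and 3 at a threshold of 1.5-fold. The number lower, 2 as reported, was 3 with the GC trend taken out, 3 at 1.5-fold and 0 at 4-fold. Shares of all genes were not computed for the other pseudocounts and scalings, so those counts have no share beside them. SAT1 ranged from 3.60 to 3.98, ODC1 from -1.16 to -1.04 and SRM from -1.84 to -1.23.

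Of the genes around the pathway, 3 were higher with each smaller pseudocount (0.1 FPKM, 0.5 FPKM and none), and 3, 2 and 3 were lower. Scaled to the total without the 20 most abundant genes or to the upper quartile, and likewise after removal of the GC trend, the numbers were 2 and 0. Under median of ratios scaling they were 1 and 1, as reported. With the trend removed, 7.01% of all matched genes were higher and 6.03% lower by 2-fold. The threshold of 1.5-fold gave 4 higher and 5 lower genes, beside 20.8% and 21.6% of all genes. That of 4-fold gave 0 and 0, beside 0.837% and 1.23%. For the other pseudocounts, the scalings and the filter no share of all genes was computed, so their counts are a description only. For the other genes named, 132 of 132 values kept their direction and 111 their side of 2-fold. As for the polyamine genes, the pseudocounts and the filter could not alter a direction. The median of the genes around the pathway, -0.099, turned to 0.0030 under the total without the 20 most abundant genes and to 0.00017 under upper quartile scaling. All ratios between polyamine genes kept their direction and their side of 2-fold with 0.1 or 1 FPKM added. The ratios were not computed with the GC trend removed. Unless stated, the cause was not tested. As depth is unknown, the counting error of SMOX, PAOX and OAZ2 cannot be given.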
